A study of Mus musculus with 5 samples.

Results

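The Polycomb group genes examined here were the 10 genes Ezh1, Ezh2, Eed, Suz12, Bmi1, Cbx2, Cbx7, Ring1, Rnf2 and Kdm6b. They were found on the arrays as every probe set that the platform annotation gives to 1 of these symbols alone, which made 29 of the 45101 probe sets and 10 of 18194 genes. A probe set is a group of short probes for 1 transcript, and 24 of the 29 had a mean signal of at least 100 and entered the tests. Each of the 10 genes had at least 1 such probe set.

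Gene expression was measured on 5 Affymetrix arrays of mouse RNA: 4 medulloblastomas, a tumour of the cerebellum, and 1 normal cerebellum whose title reads P5, taken as postnatal day 5. The series title names Cxcr6 mutant mice (Cxcr6 is a receptor for a chemokine) and an inhibitor of Smoothened, the membrane protein that passes on the Hedgehog signal. No genotype, strain, treatment, tumour age or pooling is given for any single array, so the comparison that could be made was of tumours with P5 cerebellum, and a difference cannot be told apart from one of age. The titles of medulloblastomas 1 and 2 start with ken and those of medulloblastomas 3 and 4 and the cerebellum with hmk; what the prefix stands for is not given.

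Polycomb proteins keep genes silent by marking the histones around them. Polycomb repressive complex 2 (PRC2) adds methyl groups to histone H3 through Ezh2 or its relative Ezh1, which work only together with Eed and Suz12. Polycomb repressive complex 1 (PRC1) reads that mark through Cbx proteins and attaches ubiquitin to histone H2A through Ring1 or Rnf2, helped by Bmi1, while Kdm6b takes the methyl mark off again. In the mouse cerebellum Bmi1 is known for sustaining the division of granule neuron precursors, the cells from which Hedgehog-driven medulloblastoma arises, and its best known target is the Cdkn2a locus.

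The arrays could be compared at similar scale but without replicates of the normal tissue. Median signals lay between 191 and 213 for tumours, and the cerebellum had 232. Atoh1, which marks granule neuron precursors, was higher in the tumours by 2.81 ± 0.40 on the log2 scale (SE; limma, adjusted p = 0.0335). Of the 6 granule neuron lineage markers, 2 were above the cerebellum in all tumours, Atoh1 and Barhl1 (0.97), and 3 were below it in all, Pax6 (-1.02), Neurod1 (-0.81) and Zic1 (-0.40), of which Zic1 was at 16486 or more on every array. Of all genes, 25.1% were above and 30.8% below the cerebellum in all tumours. The median of the 6 was -0.32. With equal medians 2 were below in all tumours, and the median was -0.13. Control probes at the 3' end over those at the 5' end, a ratio that grows as RNA breaks down, gave their highest values in medulloblastoma 1 (1.45 for actin, 0.946 for Gapdh; other arrays 1.21 to 1.35 and 0.731 to 0.824). Limma called 69 of 14110 genes, 0.489% of those tested, a count that was 834, 2, 17 and 0 without medulloblastoma 1, 2, 3 or 4. The errors rest on the spread of the tumours alone, and the lone cerebellum was taken to vary as they do. The smallest p that exact permutation allows with 4 tumours and 1 cerebellum is 0.2. Nothing states that the tumours came from separate animals, so p-values measure only the spread between these samples.

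Promoters of 8 of the 10 genes were in the RefSeq table of GRCm38.p6 (250 bases before to 50 after the start). Those of 4 genes that read above the cerebellum in every tumour are shown, since the results turn on these genes: Bmi1 (chr2:18676768-18677067, plus strand), Ezh2 (chr6:47594981-47595280, minus strand), Suz12 (chr11:79992856-79993155, plus strand) and Eed (chr7:89980927-89981226, minus strand). Each is written 5′ to 3′ along the gene, and capitals mark matches to the E2F letters or the E-box named after the sequences.
Bmi1: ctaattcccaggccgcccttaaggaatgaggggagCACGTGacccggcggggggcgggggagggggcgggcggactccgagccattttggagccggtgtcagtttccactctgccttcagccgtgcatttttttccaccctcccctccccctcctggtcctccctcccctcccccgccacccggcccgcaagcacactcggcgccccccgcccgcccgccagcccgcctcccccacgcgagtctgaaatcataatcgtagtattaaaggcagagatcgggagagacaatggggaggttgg
Ezh2: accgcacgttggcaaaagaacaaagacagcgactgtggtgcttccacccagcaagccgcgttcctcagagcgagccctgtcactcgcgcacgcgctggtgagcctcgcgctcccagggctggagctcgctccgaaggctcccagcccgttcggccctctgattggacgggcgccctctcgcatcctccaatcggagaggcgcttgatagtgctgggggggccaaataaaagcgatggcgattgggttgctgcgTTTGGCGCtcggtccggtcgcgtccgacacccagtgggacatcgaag
Suz12: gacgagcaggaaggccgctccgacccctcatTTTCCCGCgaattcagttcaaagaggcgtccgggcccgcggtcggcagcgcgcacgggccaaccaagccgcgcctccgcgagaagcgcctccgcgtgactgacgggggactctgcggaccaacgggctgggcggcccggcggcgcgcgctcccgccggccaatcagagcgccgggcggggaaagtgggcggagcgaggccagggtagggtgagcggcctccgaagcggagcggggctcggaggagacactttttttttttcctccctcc
Eed: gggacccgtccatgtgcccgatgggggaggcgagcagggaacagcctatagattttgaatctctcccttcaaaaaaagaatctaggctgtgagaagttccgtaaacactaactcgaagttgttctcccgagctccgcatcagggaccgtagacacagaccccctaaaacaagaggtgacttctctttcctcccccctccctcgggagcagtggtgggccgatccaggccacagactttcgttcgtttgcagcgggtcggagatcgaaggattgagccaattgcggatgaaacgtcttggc

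Short motifs were searched on both strands of these windows. The letters TTTCCCGC, TTTCGCGC, TTTGCCGC and TTTGGCGC, a form of the site of the cell-cycle factors E2F, were found in the promoters of Ezh2 (TTTGGCGC, from base 4 after the start) and Suz12 (TTTCCCGC, from base -219), and in 2.26% of all 32851 promoters. The E-box CACGTG, a site that Myc proteins can bind, was found in that of Bmi1 (from base -215) and in 7.15% of all. TGGGTGGTC, a site of the Hedgehog factors of the Gli family, was in none of the 8 and in 0.253% of all promoters. The CCAAT box (CCAAT) was in those of Ezh2, Eed, Suz12 and Cbx7 and in 37.4% of all. No match overlapped another in these windows, and a match is a run of letters, not evidence of binding. G and C made up 66.3% of the bases for Bmi1, 64.3% for Ezh2, 71% for Suz12 and 54.7% for Eed, against a median of 52.7% over all promoters.

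None of the 10 Polycomb group genes passed the test over all genes (limma, Benjamini-Hochberg adjusted p under 0.05, met by 0.489% of genes). At an unadjusted p under 0.05, 1 of them, Bmi1, was higher and 0 were lower, where 7.72% and 7.44% of all genes were. Without a test, 6 of the 10 (Ezh2, Eed, Suz12, Bmi1, Cbx2 and Rnf2) read above the cerebellum in all 4 tumours, as did 25.1% of all genes, and 2 (Ring1 and Kdm6b) read below it in all 4, as did 30.8%. With quantile normalization 3 were above, because 1 tumour each of Ezh2, Cbx2 and Rnf2 then lay below the cerebellum. With all probe sets of a gene averaged, 4 were above and 4 below. Scaling to equal medians, under which the all-gene median goes from -0.07 to 0.12, left 7 above and 1 below. By its brightest probe set, none differed 2-fold or more from the cerebellum in every tumour, as 5.98% of genes did. The median log2 difference of the 10 genes was 0.32 against -0.07 over all genes tested, and the median size of the difference, whatever its sign, was 0.41 in both.

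**Figure D1:**
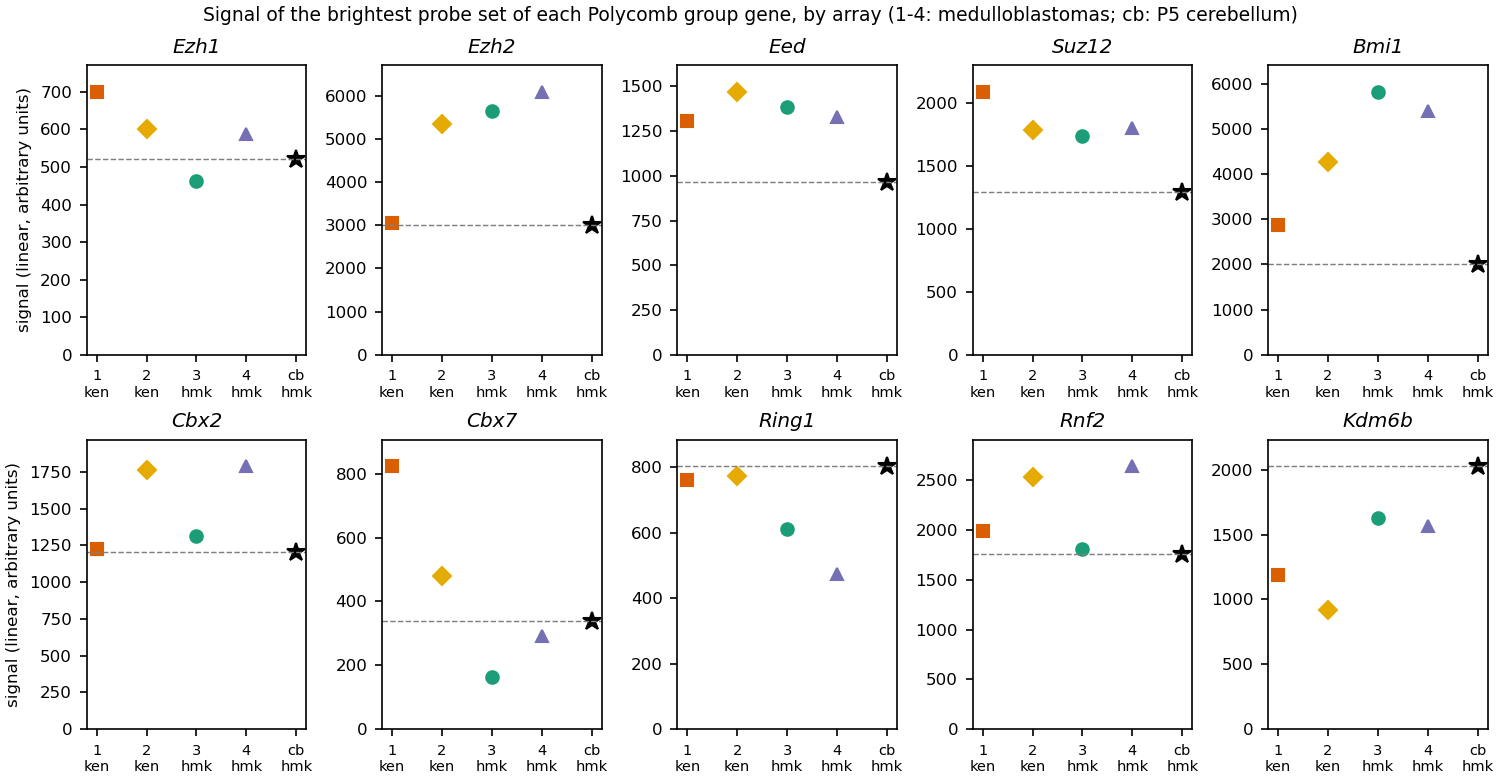
Signal (linear scale, arbitrary units) of the brightest probe set of each of the 10 genes on each array; coloured points are medulloblastomas 1 to 4, the star and dashed line the P5 cerebellum, and each panel has its own axis from 0. Bmi1 read from 2876 to 5831 in the tumours against 1999.8 in the cerebellum, whereas Kdm6b read from 922 to 1625 against 2030.1.

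Bmi1, the PRC1 subunit that stimulates the ubiquitin ligase Rnf2, stood furthest from the cerebellum when each gene was read by its brightest probe set; without probe sets ending in x_at or s_at Suz12 was further (1.21). Its brighter probe set read 2876, 4268, 5831 and 5397 in medulloblastomas 1 to 4, with the cerebellum at 1999.8. All 4 tumours were above, medulloblastoma 1 the least and the hmk tumours the most. The mean tumour signal was 2.30-fold that of the cerebellum, and the log2 difference was 1.14 ± 0.37 (SE; limma, unadjusted p = 0.0149, adjusted p = 0.235). The other probe set gave the same order of tumours, at 1566, 1934, 2597.5 and 2344 against 938, again with all tumours above; both were designed on 1 transcript record, so they are not independent. Without medulloblastoma 1 the Bmi1 difference was 1.34 and passed the threshold (limma, adjusted p = 0.0127), as did 834 of all 14110 genes. The hmk arrays alone gave 1.47 (adjusted p = 0.000615), with the spread of only 2 tumours behind it, and 1679 genes passed in that fit. The ken tumours set against the same cerebellum gave 0.80 (adjusted p = 0.433).

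Ezh2, the PRC2 enzyme of dividing cells, was high in 3 tumours and level with the cerebellum in the other. Its single probe set read 3047, 5337, 5649.9 and 6099 in medulloblastomas 1 to 4; the cerebellum read 3009. Medulloblastoma 1 and the cerebellum differed by 0.02 on the log2 scale, a gap that turned to -0.10 with quantile normalization and 0.23 with equal medians, and the other tumours lay well above (0.82, 0.90 and 1.01). Over the 4 tumours the difference was 0.69 ± 0.37 (SE; limma, adjusted p = 0.405). Without medulloblastoma 1 it was 0.91 and passed the threshold (limma, adjusted p = 0.0252), as it did within the hmk arrays (0.96, adjusted p = 0.00595). Of all 14110 genes, 834 and 1679 passed in those fits. The pair of ken tumours gave 0.42 against the same cerebellum (adjusted p = 0.704).

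The median and the sum of the markers of dividing cells were also lowest, among the tumours, in medulloblastoma 1. The 12 proliferation markers chosen for comparison had 11 measured members, of which 0 passed over all genes, where 0.489% of genes did. At an unadjusted p under 0.05 (limma) 6 were higher, as were 7.72% of all genes. In all 4 tumours 10 were above the cerebellum, as were 25.1% of all genes. The median log2 difference of the 11 markers was 0.36, 0.85, 0.82 and 0.88 in medulloblastomas 1 to 4. Their signals summed to 46131, 62556, 58767 and 58249.8 over the tumours, compared with 32726 for the cerebellum. The replication helicase genes Mcm2 (1.16 ± 0.31), Mcm3 (1.11 ± 0.32) and Mcm6 (0.89 ± 0.31) and the proliferation antigen gene Mki67 (0.85 ± 0.21) were furthest up among them (SE; limma, adjusted p between 0.129 and 0.259). Single markers could differ from the list: Mki67 was lowest in medulloblastoma 3 (7251, against 7488 in medulloblastoma 1). The part of proliferation in the Ezh2 and Bmi1 values was not tested. In RNA from whole tissue, fewer cells of a type and less RNA per cell cannot be told apart.

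**Figure D2:**
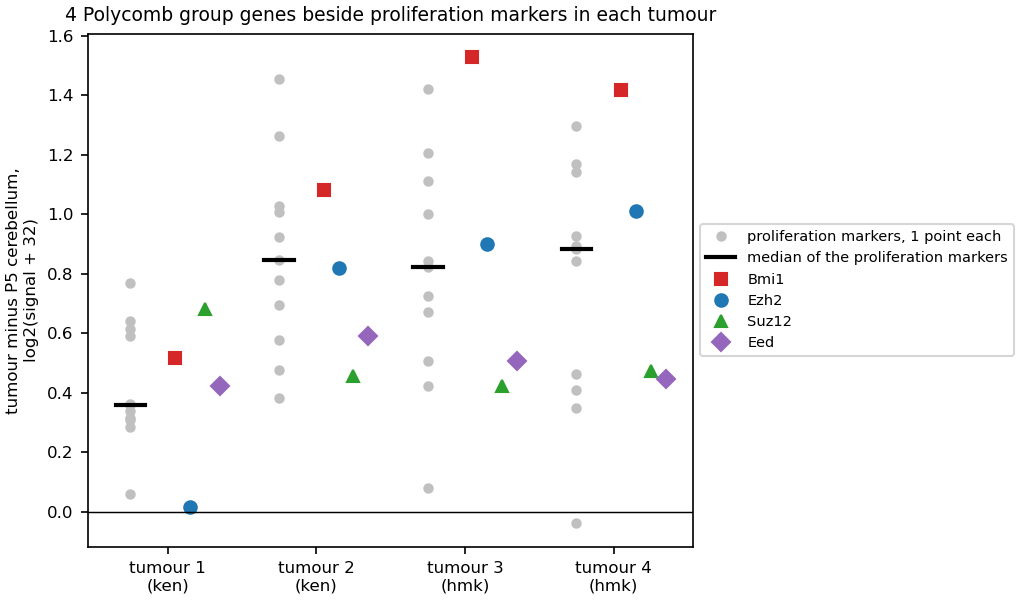
Difference from the P5 cerebellum on the log2(signal + 32) scale in each tumour, for Bmi1, Ezh2, Suz12 and Eed (coloured) and for 11 proliferation markers (grey points, black bars their median). Ezh2 and Bmi1 are lowest in medulloblastoma 1, where the median of the markers is also lowest at 0.36. Suz12, shown by its brightest probe set, has its highest value in medulloblastoma 1, 0.68. At its other bright probe sets, not shown, the highest values are in medulloblastoma 4 (1.11) and medulloblastoma 3 (1.51).

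Eed and Suz12, the PRC2 subunits without which the enzyme is inactive, read above the cerebellum in every tumour at their brightest probe sets, by 0.49 and 0.51 on the log2 scale; other probe sets of both differed from this. Eed, which binds the methyl mark that PRC2 makes, read 1307, 1471, 1385 and 1326 against 965 at its bright probe set. The tumours lay close together (SD 0.07 on the log2 scale) and apart from the cerebellum. On the log2 scale Eed differed by 0.49 ± 0.23 (SE; limma, adjusted p = 0.363). Its other, dim probe set read 161, 116, 116 and 146 against 121, with tumours on both sides of the cerebellum.

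Suz12, the scaffold subunit of PRC2, had 6 probe sets, of which the 3 bright ones were all above the cerebellum in all 4 tumours. The brightest read 2088, 1779, 1739 and 1802 against 1288, which is 0.51 ± 0.23 on the log2 scale (SE; limma, adjusted p = 0.351). The next read 1803, 1833, 1804 and 2201 against 1002, a difference of 0.90, and 1 more read 1329.5, 1303, 1811 and 1496 against 616, a difference of 1.21. This last probe set was at least 2-fold above the cerebellum in each tumour, the only 1 of the 24 tested probe sets of these genes to be so. At each of the 3 the SD among the tumours was 0.12 to 0.21. Tested on their own among 25855 probe sets, the latter pair had unadjusted p-values of 0.00667 and 0.00246 and adjusted ones of 0.198 and 0.140 (limma). With probe sets ending in x_at or s_at left out, which can bind more than 1 transcript, the last of them stood for the gene (1.21, adjusted p = 0.111). Of the dim probe sets, 1 read 320, 117, 199 and 421 against 197 and another 267, 181, 192 and 172 against 209.5, each with tumours on both sides. The dimmest, under the signal minimum, read 111, 65.9, 68.9 and 150.04 against 48.8, with all tumours above.

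Ezh1, the PRC2 enzyme of cells that no longer divide, showed no common direction. Its brightest probe set read 701, 602, 462 and 587 over the tumours and 521 in the cerebellum, with 3 tumours above and 1 below (0.15 ± 0.31, SE; limma, adjusted p = 0.843). The others leaned the opposite way: 329, 377, 333 and 302 against 452, then 137, 61.4, 133 and 137 against 173, and, under the signal minimum, 3.04, 43.8, 19.5 and 24.2 against 49.9, each with all tumours below. With all probe sets averaged the Ezh1 difference was -0.35 (adjusted p = 0.645), so its sign depends on the probe set.

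The catalytic subunit genes of PRC1, Rnf2 and Ring1, differed from the cerebellum by 0.33 and -0.31 at their brightest probe sets. Rnf2, the main ubiquitin ligase of PRC1, read 1994, 2532, 1808 and 2646 against 1756, higher by 0.33 ± 0.28 on the log2 scale (SE; limma, adjusted p = 0.592). All tumours were above, medulloblastoma 3 by only 0.04, which became -0.02 with quantile normalization. A second bright probe set of Rnf2 read 1162, 1875, 1741 and 2117 against 1159.6, a difference of 0.53. In medulloblastoma 1 it was level with the cerebellum. A dim one read 189, 160.3, 176 and 74.3 against 216, below it in all tumours, and with all 5 probe sets averaged the difference was -0.36 (adjusted p = 0.614). The remaining pair were under the signal minimum, at 13.6, 32.4, 27.3 and 29.8 against 42 and at 10.7, 31.3, 9.93 and 14 against 131.

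Ring1, the close relative of Rnf2 with the same activity, leaned the other way. Its single probe set read 763, 773, 612 and 475 against 805, a difference of -0.31 ± 0.34 (SE; limma, adjusted p = 0.681). All tumours were below, the ken tumours by less than 0.1, and with equal medians the ken tumours were above the cerebellum (0.13 and 0.11).

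The chromodomain genes, whose proteins bring PRC1 to methylated histones, differed in how much they varied at their brightest probe sets. Cbx2 read 1228, 1761, 1314 and 1793 against 1205 at its bright probe set (0.31 ± 0.29, SE; limma, adjusted p = 0.631). Medulloblastoma 1 was level with the cerebellum, and with quantile normalization it was 0.01 below it. The dim probe set of Cbx2 read 267, 404, 422 and 268 against 311, with tumours on both sides.

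Cbx7, known in the mouse for repressing the Cdkn2a locus, varied most among the tumours when each of the 10 genes was read by its brightest probe set. Its brightest probe set read 825, 478, 162 and 292 against 339, above the cerebellum in both ken tumours and below it in both hmk tumours. The SD among tumours was 0.91 on the log2 scale, against a median of 0.30 for the 10 genes and 0.31 for all genes. The difference from the cerebellum was 0.13 ± 0.70 (SE; limma, adjusted p = 0.943), and without medulloblastoma 1 it was -0.22. A second probe set ran the other way, at 143, 175, 224 and 221 against 159, with the hmk tumours the higher. Its SD among tumours was 0.26. The dimmest, under the signal minimum, read 108, 40.5, 37.3 and 24.4 against 71.7: the ken tumours were again the higher, but only medulloblastoma 1 was above the cerebellum.

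Kdm6b, the demethylase that removes the PRC2 mark, read below the cerebellum in every tumour at all 3 of its probe sets. The brightest read 1185, 922, 1625 and 1566 against 2030.1, which gives -0.64 ± 0.34 on the log2 scale (SE; limma, adjusted p = 0.405). The ken tumours were lower than the hmk tumours there. The other probe sets read 705, 394, 593 and 660 against 808, and 289, 232, 202 and 178 against 289.5, where medulloblastoma 1 was level with the cerebellum. One further probe set is given to Kdm6b together with another gene and was not used.

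**Figure D3:**
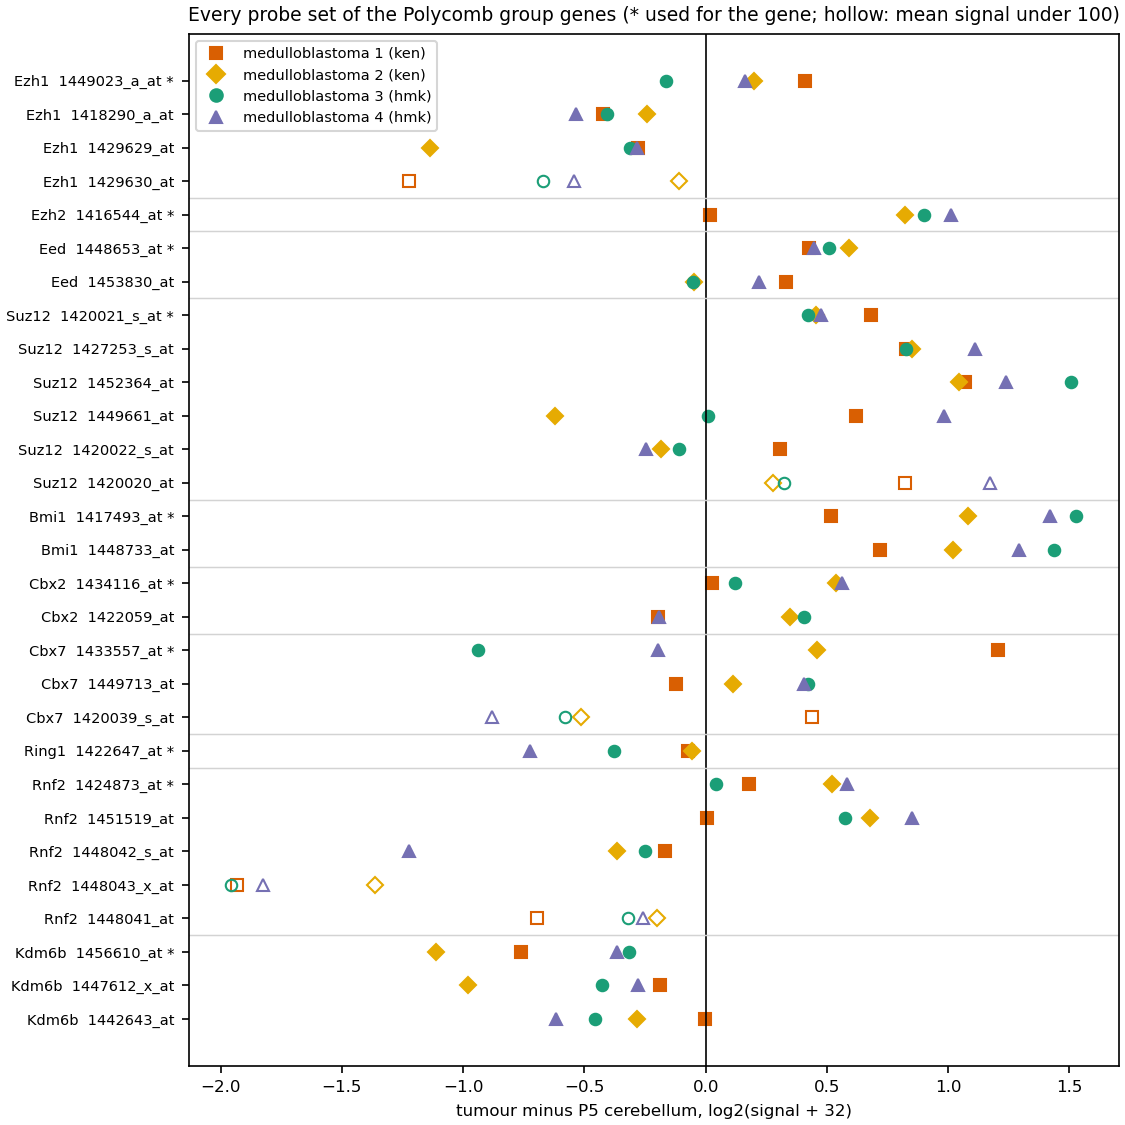
Difference of each tumour from the P5 cerebellum on the log2(signal + 32) scale at all 29 probe sets; filled symbols are the 24 with a mean signal of at least 100, hollow ones the 5 below it, and a star in the label marks the probe set used for the gene. Both Bmi1 probe sets and the 3 bright Suz12 probe sets have every tumour to the right of 0. All 3 of Kdm6b have every tumour to the left, medulloblastoma 1 at the dimmest by only 0.002. The probe sets of Ezh1, Cbx7 and Rnf2 disagree.

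Over the 24 tested probe sets, 10 had all tumours above the cerebellum and 7 all tumours below, against 25.4% and 28.4% of all probe sets. Of the genes with several tested probe sets, Bmi1 and Kdm6b had all of them on 1 side in every tumour. For Kdm6b this counts medulloblastoma 1 at the dimmest probe set, which was level with the cerebellum (log2 difference -0.002).

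The ken and hmk tumours were set against each other after the values had been seen, as 2 against 2. The 2 kinds did not overlap for 6 of the 10 genes, as for 44.8% of all genes. None of the 10 passed over all genes (limma; 0.0425% of genes did), and 3 had an unadjusted p under 0.05, as did 12.3% of genes. Cbx7 was higher in the ken tumours by 1.40 ± 0.38 (SE; limma, adjusted p = 0.256), and Bmi1 and Kdm6b were lower in them, with ken minus hmk differences of -0.67 ± 0.22 (adjusted p = 0.312) and -0.60 ± 0.22 (adjusted p = 0.349). Ezh2 differed by -0.54 ± 0.26 (adjusted p = 0.440). Without medulloblastoma 2 the differences of Ezh2, Bmi1, Cbx7 and Kdm6b were -0.94, -0.96, 1.77 and -0.42, with medulloblastoma 1 as the only ken tumour. Without medulloblastoma 1 they were -0.14, -0.39, 1.02 and -0.77, with medulloblastoma 2 as the only ken tumour. All these differences are those of the brightest probe sets. With all probe sets averaged and every tumour kept, Bmi1, Cbx7 and Kdm6b differed by -0.58, 0.56 and -0.14. At the dimmest probe set of Kdm6b the ken tumours were the higher (289 and 232 against 202 and 178). Whatever the prefix stands for and the identity of these tumours cannot be told apart.

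Markers of other cell types also stood apart between tumours and cerebellum. Of all genes, 25.1% were above the cerebellum in every tumour and 30.8% below it, and limma called 0.489%. All 8 microglia and macrophage markers were above the cerebellum in every tumour (7 with quantile normalization), with a summed signal of 16480 to 18105 against 6436. Of 5 astrocyte and Bergmann glia markers 4 were below it in every tumour (11947 to 18680 against 56938), as were all 5 endothelial markers (1741 to 2264 against 4917; 4 of them with quantile normalization or equal medians). Mature granule neuron markers, 3 of 4 above in every tumour, summed to 24709, 12619, 6436 and 8818 against 7148, and Purkinje cell markers, 3 of 4 below (2 with equal medians), to 25748, 13523, 5781 and 8978 against 28413. Both were highest among the tumours in medulloblastoma 1, the tumour with the lowest Ezh2 and Bmi1 and, at its brightest probe set, the highest Cbx7. At the second Cbx7 probe set medulloblastoma 1 was the lowest tumour (143). Oligodendrocyte lineage markers, 1 of 5 above and 1 below, summed to 35311, 18031, 14315 and 13799 against 14969. Limma called 7 of these markers (adjusted p from 0.0196 to 0.0468): Ctss (2.37), C1qa (1.95) and Tyrobp (1.44) of microglia, Gabra6 (3.99) of mature granule neurons and Mobp (3.71) of oligodendrocytes were higher in the tumours, and Aldh1l1 (-2.64) and Aqp4 (-2.09) of astrocytes were lower. Without medulloblastoma 4 none of them was called, as no gene was (806 higher and 896 lower at an unadjusted p under 0.05). The other markers furthest from the cerebellum did not pass: Aif1 (1.72) and C1qb (1.53), Fabp7 (-2.42) and Slc1a3 (-1.50), and the endothelial Pecam1 (-2.18), Kdr (-1.90), Cdh5 (-1.71) and Cldn5 (-1.03). The same held for Cbln3 (3.11), Grin2c (2.19) and Cbln1 (-0.63) of granule neurons, for Pvalb (2.38), Pcp4 (-2.33), Calb1 (-1.64) and Pcp2 (-1.28) of Purkinje cells, and for Sox10 (-0.49), Mag (-0.35) and Mbp (0.27) of oligodendrocytes. Pecam1 (58.0, 83.7, 100 and 58.5 against 447) reached the signal minimum only with the cerebellum counted. The cerebellum read only 85.1 for Mobp and 86.5 for Aif1, which reached it through the tumours. No marker of these lists was at 0 on any array, and their part in the values of the Polycomb genes was not tested.

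Among the further subunits of PRC2, 0 of 8 measured genes passed over all genes. In all tumours 4 were above and 1 below the cerebellum, where 25.1% and 30.8% of all genes were. With quantile normalization 2 of the 8 were above and 1 below. The median difference of the 8 was 0.18. Aebp2, a DNA-binding partner of PRC2, read 1615, 1857, 2372 and 1883 against 1113 (0.76 ± 0.27, SE; limma, adjusted p = 0.256). The accessory subunit genes Mtf2 and Phf19, whose proteins help place the complex on chromatin, differed by 0.38 and -0.59, and the histone-binding subunit gene Rbbp7 by 0.32. Aebp2 passed the threshold within the hmk arrays (0.91; limma, adjusted p = 0.0298), as did 1679 of all 14110 genes.

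The further PRC1 genes were spread to both sides. Of 18 listed genes 16 were measured and 0 passed over all genes. In all tumours 6 were above the cerebellum and 5 below, where 25.1% and 30.8% of all genes were. The 6 and 5 became 4 and 4 with quantile normalization, and 6 and 2 with equal medians. The median of the 16 genes was 0.08. Auts2, which belongs to a PRC1 variant of the nervous system, was the furthest, at 1580, 949.9, 922 and 730 against 2462, and the difference was -1.27 ± 0.39 (SE; limma, adjusted p = 0.212). Without medulloblastoma 1, its highest tumour, Auts2 passed the threshold (-1.48, adjusted p = 0.0154), as it did within the hmk arrays (-1.55, adjusted p = 0.00367). Scmh1, another PRC1-associated gene, read 1338, 1151, 1032 and 1283 against 2080 (-0.78 ± 0.25, adjusted p = 0.233), and passed within the hmk arrays (-0.84, adjusted p = 0.0477). Of all 14110 genes, 1679 passed within the hmk arrays and 834 without medulloblastoma 1. Pcgf5, a relative of Bmi1 that Auts2 joins, and the corepressor gene Bcor lay above the cerebellum in every tumour, by 0.63 and 0.53.

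The complex that removes ubiquitin from histone H2A showed little difference: 0 of its 4 genes passed, and the median was -0.01, or 0.03 with quantile normalization and 0.18 with equal medians. Asxl3 was the furthest (-0.66), and Asxl1, Asxl2 and the enzyme gene Bap1 lay within 0.25 of the cerebellum on average.

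Of the other genes that act against Polycomb, Kdm6a, the second demethylase of the PRC2 mark, stood furthest from the cerebellum. Of 13 measured genes, Kdm6a and trithorax genes, 0 passed over all genes, and the median was 0.14. In all tumours 3 were above the cerebellum and 0 below, where 25.1% and 30.8% of all genes were. With equal medians, under which the all-gene median goes from -0.07 to 0.12, 10 were above. The share of all genes above under that scaling is not given. Kdm6a read 1098, 581, 724.5 and 1031 against 394, the opposite side from Kdm6b, with a difference of 1.02 ± 0.38 (SE; limma, adjusted p = 0.280). The methyltransferase gene Kmt2c and the core subunit gene Wdr5 were also above in every tumour, by 0.55 and 0.33 on average, and Dpy30, another core subunit gene, differed by 0.31 with 1 tumour below.

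Genes that Polycomb is known to silence were dim. Of 39 Hox genes, which pattern the body axis, 33 had a probe set and 14 reached the signal minimum, of which 0 passed. In all tumours 2 were above and 6 below the cerebellum, where 25.1% and 30.8% of all genes were. The median of the 14 was -0.47, or -0.22 over 15 genes with quantile normalization or equal medians. No Hox probe set read above 294.6 in a tumour or 581 in the cerebellum. Hoxa5 gave both of those values, at 200.2, 294.6, 54.1 and 93.6 against 581 (-1.86 ± 0.72, SE; limma, adjusted p = 0.291). It passed within the hmk arrays (-2.56; limma, adjusted p = 0.0216), as did 1679 of all 14110 genes. Both hmk tumours were dim for Hoxa5 (54.1 and 93.6), each under the value set as the signal minimum. The Hoxa5 probe set ends in x_at, and such probe sets can bind several transcripts. Hoxc5 (1.57), Hoxc9 (-1.29) and Hoxc6 (-0.84) were the next furthest. The signal minimum is a mean over all 5 arrays. Hoxc9 (117, 44.6, 109 and 96.8 against 261) and Hoxa13 (105, 107, 106 and 75.5 against 184) reached it only with the cerebellum counted. Both were below in all tumours. Hoxd8 (90.5, 168, 71.2 and 58.5 against 149) was another such gene, and Hoxc5, at 15.7 in the cerebellum, reached it through the tumours. The counts on each side and the median therefore depend partly on this filter.

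The cell-cycle inhibitor genes of the Cdkn2a locus, the best known targets of Bmi1 and Cbx7, varied widely among the tumours. Cdkn2a read 114, 76.01, 331 and 369 against 137, below the cerebellum in the ken and above it in the hmk tumours (0.38 ± 0.77, SE; limma, adjusted p = 0.843). Its neighbour Cdkn2b read 307, 49.9, 511 and 326.5 against 46.7 (1.78 ± 0.92, adjusted p = 0.391), with medulloblastoma 2 level with the cerebellum. Cdkn2b passed within the hmk arrays (2.49; limma, adjusted p = 0.0119), as did 1679 of all 14110 genes. Cdkn2b reached the signal minimum through the tumours, so its differences are measured against a dim cerebellum value (46.7). Medulloblastoma 2 was about as dim (49.9). Across the tumours Cdkn2a was thus highest in the hmk tumours, where Bmi1 was also highest. Cbx7 was lowest there at its brightest probe set but highest there at its second. With 4 tumours no relation was computed.

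**Figure D4:**
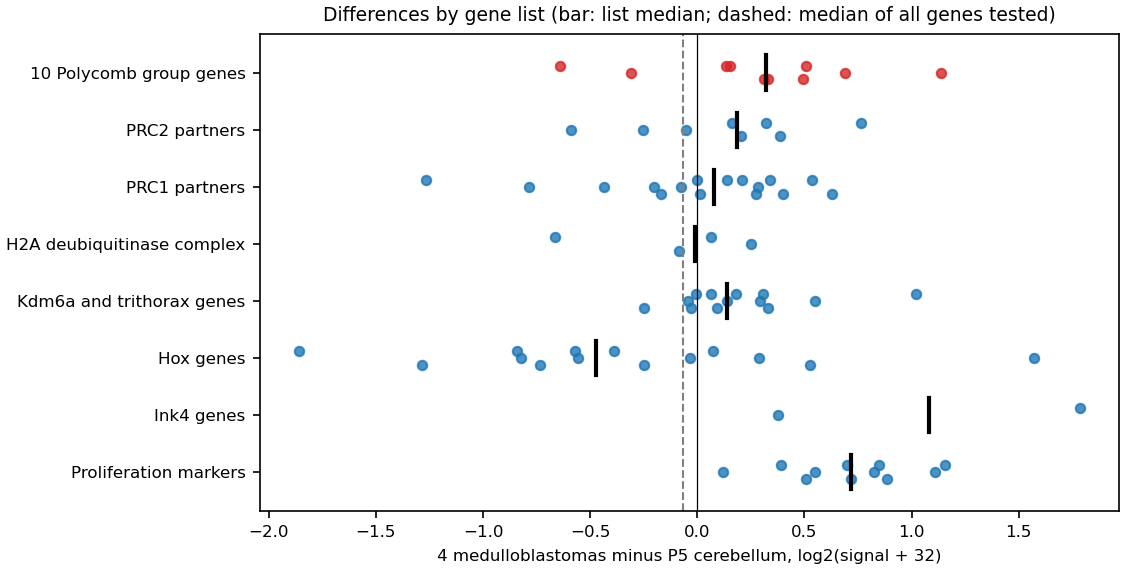
Log2 difference, 4 medulloblastomas minus P5 cerebellum, of each measured gene in the 10 Polycomb group genes (red) and 7 further lists (blue); black bars are list medians and the dashed line the median of all genes tested, -0.07. The list medians run from -0.47 for Hox genes to 1.08 for the pair of Ink4 genes, Cdkn2a and Cdkn2b.

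By its brightest probe set, Bmi1 was the only 1 of the 10 genes at least 1 on the log2 scale from the cerebellum, and the genes with the nearest values over the 4 tumours were looked up for it. The closest of all 14110 was Ybx3, a cold-shock protein gene, with a root mean square distance of 0.05 on the log2 scale from Bmi1 and signals of 4386, 6781, 9570 and 8973 against 3186. Zfp62, a zinc finger gene, followed at 0.08 and Il12rb2, an interleukin receptor gene with signals between 54.3 and 206, at 0.08. With 4 values per gene and many genes to choose from, this likeness is a description.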

How the data were processed

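RNA of 4 mouse medulloblastomas and 1 P5 cerebellum was measured on Affymetrix arrays, with Trizol extraction per the labels except for medulloblastoma 4, whose entry names the manufacturer's procedure. The deposited values are linear intensities, 1 for each probe set of an array, made by the authors with MAS5 per the submitters' processing notes except for medulloblastoma 3, where no tool is given; detection calls were not used here. Tumours are numbered in record order, which is only a name. The platform annotation named 34958 probe sets with 1 gene symbol and 932 with several, which were left out; RefSeq gene IDs of GRCm38.p6 changed 0 symbols.

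Arrays were scaled to a mean of 500 after trimming 2% at each end, which they already had, and then 32 was added before log2; differences of dim genes are understated on that scale. The brightest probe set on average stood for each gene, and 14110 genes with a mean of at least 100 were fitted with limma 3.58.1 in R 4.3.3 (eBayes with a variance trend; two-sided, Benjamini-Hochberg over all genes; threshold 0.05). With 1 cerebellum no pairing was possible. The number of arrays limits the precision.

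The genes and lists were chosen with earlier results of these data known. Named genes were all 10 Polycomb group genes with every probe set, and of each further list the genes called and up to 4 with the largest differences; for any of the 10 at least 1 from the cerebellum, the 3 nearest genes. Zic1, Hoxa13 and Hoxd8 fall outside this rule and were named after their values were seen, Zic1 to complete a count and the others to show the effect of the signal minimum. Alternatives were other scalings, constants, filters, probe sets, variance models and subsets of arrays.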

Additional observations from a re-analysis of the deposited data

Results flagged for a closer look

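Among the 4 tumours, 2 of the 24 tested probe sets had 1 tumour far from the others (Dixon's criterion; chance alone gives about 1 in 20). Medulloblastoma 2 was low at a dim probe set of Ezh1, at 61.4 against 133 to 137 in the other tumours. Medulloblastoma 4 was high at the second brightest probe set of Suz12, at 2201 against 1803 to 1833. Cbx7 was above the cerebellum in both ken tumours and below it in both hmk tumours at its brightest probe set, a ken minus hmk difference of 1.40 on the log2 scale that did not pass over all genes (limma, adjusted p = 0.256). The highest and lowest signals, 825 and 162, were those of medulloblastomas 1 and 3.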

How the results depend on the processing

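Each of the 10 genes was recomputed under 18 alternatives. Some of them could not move a difference: the filters on signal, the fit of each probe set and the variance model change only its p-value. Leaving out the scaling repeated the main values, since the arrays already had that mean. Ezh2 and Ring1 have a single probe set, so the choice of probe set could not move them. Under all 18 alternatives Ezh2, Eed, Suz12, Bmi1, Cbx2, Ring1 and Kdm6b kept their direction. Ezh1 (-0.35), Rnf2 (-0.36) and Cbx7 (-0.016) changed sign with all probe sets averaged. Cbx7 also changed sign within the hmk arrays (-0.57) and without medulloblastoma 1 (-0.22). With each tumour left out, the Cbx7 difference lay between -0.22 and 0.49. None of the 10 passed the threshold except Bmi1 and Ezh2, 2 genes, within the hmk arrays and without medulloblastoma 1. Over all 14110 genes, 1679 and 834 passed in those fits. With each tumour left out in turn, the number of the 10 called was between 0 and 2. The number with every tumour above the cerebellum, 6, was 3 with quantile normalization. The number below, 2, was 1 with equal medians, and with all probe sets averaged 4 were above and 4 below. The further PRC2, PRC1, H2A deubiquitinase, Kdm6a and trithorax, Hox and Ink4 lists had 8, 16, 4, 13, 14 and 2 tested genes. Of these 0 were called, and 5 within the hmk arrays, where 1679 of all 14110 genes were. With each tumour left out 0 to 1 were called, the 1 without medulloblastoma 1, where 834 of all genes were. Over all genes the 69 calls (63.8% of them higher) became 26 with no filter, 28 with probe sets averaged, 0 without a variance trend (908 higher and 1099 lower at an unadjusted p under 0.05), 1679 within the hmk arrays (49.9% higher), 37 for the ken tumours with the cerebellum, and 0 to 834 with each tumour left out (806 higher and 896 lower at an unadjusted p under 0.05 where 0 were called). The share of higher calls was 79.6% with equal medians and 47.1% with the larger constant added before log2. For ken against hmk tumours 0 of the 10 genes were called. With a tumour left out 1 prefix keeps a single tumour, so calls of those fits are not given. Fits on the tumours of 1 prefix take their spread from a single pair, so their counts do not measure strength. No paired analysis was possible because there is 1 cerebellum. Signal over background could not be judged, since detection calls were not used.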
